A study of Mus musculus with 12 samples.

Results

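The comparison asked what pregnenolone 16α-carbonitrile (PCN) given to mice on a high-fat diet did to gene expression in the duodenum, with untreated mice on the same diet as the control. PCN is a synthetic steroid that activates the rodent pregnane X receptor (PXR). The libraries compared were HFD PCN 5, 11 and 27 against HFD 4, 30 and 38, which are 6 of the 12 libraries of the study. Their groups come from their labels. All 12 libraries came from the duodenum of C57BL/6N mice that were 6 weeks old when their diets began, and the diets lasted 18 weeks. The HFD PCN mice ate the high-fat diet and received PCN at 50 mg/kg into the peritoneum once daily over 4 days. The HFD mice ate the high-fat diet and have no treatment in their labels. A further group, HFD Vehicle (libraries 23, 50 and 55), ate the high-fat diet and was injected for 4 days with corn oil holding 30% DMSO. The last group, Chow (8, 17 and 19), ate regular chow without treatment. The labels do not name the solvent in which PCN was dosed. In HFD PCN against HFD the drug, the injections and the solvent come together, and they cannot be told apart within this comparison. Each of these groups of 3 libraries also stands wholly in 1 of 2 deposited tables, HFD with Chow and HFD PCN with HFD Vehicle, so that table and treatment cannot be told apart either. The labels give every library its own number but do not say that the libraries came from separate animals, and p-values may then measure only the spread between these samples.

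PXR (Nr1i2) is a nuclear receptor of the liver and the gut epithelium that binds steroids, bile acids and drugs. It pairs with the retinoid X receptor on DNA repeats near its targets and raises the oxidation, conjugation and export of foreign compounds. In the mouse, Cyp3a11 is its standard target, and Cyp2b10 is the standard target of the related constitutive androstane receptor (CAR, Nr1i3). In the duodenum these enzymes and pumps sit in the enterocytes, the first cells that meet a swallowed compound.

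The 6 libraries held 4925123 (HFD 4) to 20684369 counts (HFD PCN 5) in their tables. After the tables were joined on the 26121 genes that both list, HFD 4 kept 86.97% of its counts and the other libraries kept 97.25% to 99.98%. Most of what HFD 4 lost was CT010467.1, a ribosomal RNA gene listed only in the table of Chow and HFD, with 13% of the counts of HFD 4. The tissue label was checked because the extraction protocol speaks of liver. The brush border gene Vil1 had 1361 to 2559 CPM (counts scaled to a common library size) in the 6 libraries. The defining hepatocyte products albumin (Alb), Ahsg and Serpina1a had at most 23, 1 and 1 counts in any of them, and Ahsg was at 0 in 5 of the 6. The urea cycle gene Cps1, which the small intestine also expresses, had 643 to 1203 CPM, and the other 17 joined hepatocyte genes summed to 23.5 to 107 CPM. Library HFD 38 correlated with HFD PCN 27 in log2 CPM across genes at 0.985, and with HFD 4 and HFD 30 of its own group at 0.954 and 0.974. Both libraries nevertheless stood with their labels for Cyp3a11, at 530 CPM in HFD 38 and 4652 CPM in HFD PCN 27.

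The quasi-likelihood test of edgeR called 52 of 15982 genes at an adjusted p under 0.05, which is 0.325% of the genes tested. At an unadjusted p under 0.05 the number was 2915 of 15982. Of the 52 called genes, 39 were higher in HFD PCN (0.244% of the genes tested) and 13 were lower (0.0813%). Genes of drug metabolism and drug transport made up 22 of the 39 that rose, and 6 of the 13 that fell were collagens. The 8 lists of drug-metabolizing enzymes and transporters held 156 tested genes, of which 22 rose and 0 fell, with a median log2 fold change of 0.49 against 0.001 over all genes. In each of the 52 called genes the 3 HFD PCN libraries lay wholly above or wholly below the 3 HFD libraries. Over all tested genes that was so for 11.4% in the upward and 11.9% in the downward direction.

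**Figure D1:**
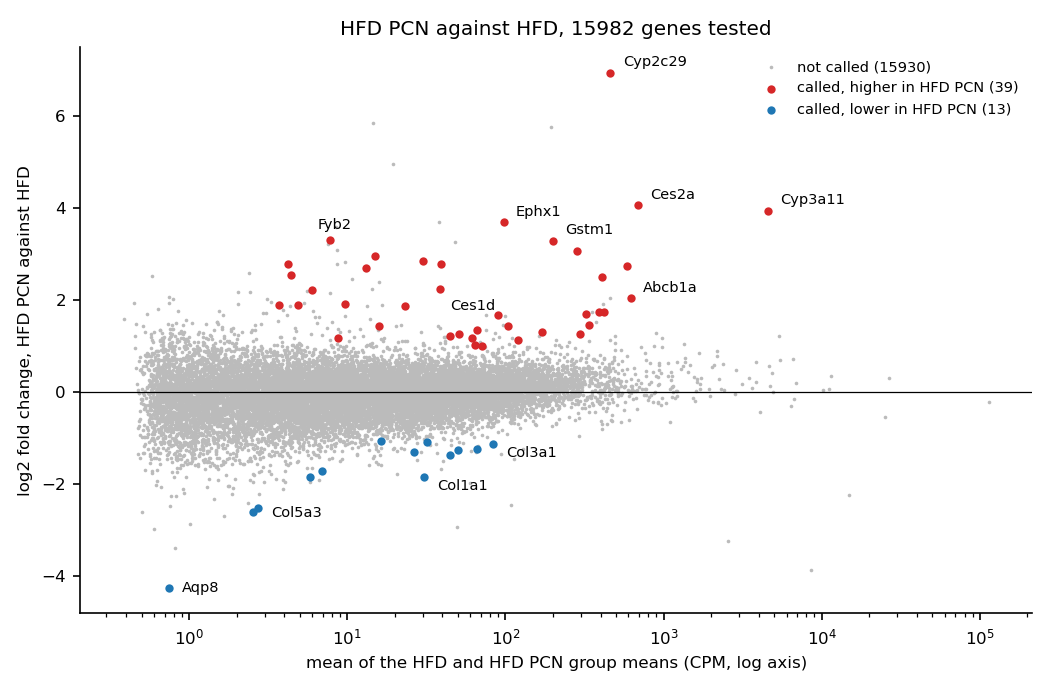
Log2 fold change of HFD PCN against HFD (vertical axis) over the mean of the 2 group means in CPM (horizontal log axis) for each of the 15982 tested genes. Red points are the 39 genes called higher and blue points the 13 called lower; Cyp2c29 is the highest called point at 6.94 and Cyp3a11 the called gene with the highest level.

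These calls leaned on single libraries, above all HFD 4. Without HFD 4 only the carboxylesterase gene Ces1d passed (0.00612% of the genes tested), and 51 calls were lost. Without HFD 30, 14 genes passed (0.0852%) and 41 of the 52 calls were lost. Without HFD PCN 5 and without HFD PCN 11, 29 and 24 genes passed, with 30 and 32 of the 52 calls lost. Without HFD 38 and without HFD PCN 27, 452 (2.75%) and 223 genes (1.36%) passed, and all 52 calls were kept in both. On the same 6 libraries other methods called both more and fewer genes. The count was 459 with DESeq2 (2.87%), 224 with weighted limma-voom (1.4%) and 746 with edgeR without a filter on low counts (2.9%). It was 31 with unweighted limma-voom (0.194%), 45 with RLE factors (0.282%), 47 with upper quartile factors (0.294%), 46 without genes resembling ribosomal RNA (0.289%) and 39 with at least 1 CPM in 3 libraries (0.266%). In all 6 fits that left out 1 library, the 52 genes kept their sign. None of their log2 fold changes moved by more than 1.5 times. The 52 were chosen in these same libraries and their groups do not overlap. Leaving out 1 library could thus hardly turn a sign, and the kept signs are no support for the calls. Of the 51 genes, 10 lost their call only without HFD 4: Cyp3a11, Cyp3a25, Cyp2b10, Cyp2c38, Cyp2c66, Ces2a, Ephx1, Gstm3, Gsta2 and the pseudogene Gstm2-ps1.

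**Figure D2:**
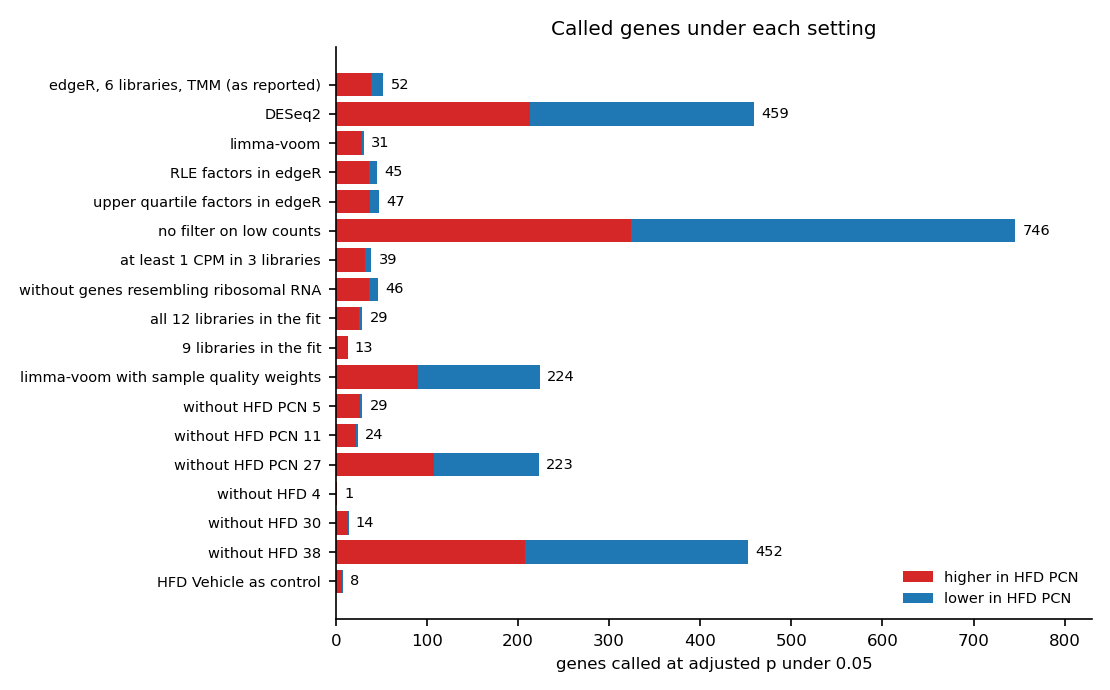
Number of genes called at an adjusted p under 0.05 (horizontal axis) in each fit (rows), with genes higher in HFD PCN in red and lower in blue. The count is 52 as reported, 1 without HFD 4 and 452 without HFD 38; in the lowest row HFD Vehicle stands in for HFD as the control, with 8 genes.

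The receptors themselves did not pass the test. Nr1i2, which encodes PXR, had 159, 212 and 169 CPM in HFD 4, 30 and 38 and 163, 202 and 168 CPM in HFD PCN 5, 11 and 27. The groups overlapped, and the log2 fold change was -0.02 (SE 0.19, adjusted p = 0.967). Nr1i3, which encodes CAR, had a log2 fold change of -0.08 (SE 0.21, adjusted p = 0.857), and Rxra, the partner receptor, one of -0.09 (SE 0.19, adjusted p = 0.816). The signs of these 3 small differences were not stable: each turned positive without HFD 30, at 0.12, 0.20 and 0.08, and Nr1i2 also without HFD PCN 5 or HFD PCN 27. Of 32 nuclear receptor and partner genes tested, 0 passed with edgeR. With DESeq2 1 passed, against 2.87% of all genes. An unadjusted p under 0.05 was reached by 11, against 2915 of all 15982 genes. The median log2 fold change of the 32 was 0.05. The 2 members with the smallest p were the thyroid hormone receptor gene Thrb (log2 fold change 0.67, adjusted p = 0.109) and Nr2f6 (-0.66, adjusted p = 0.128), which did not pass.

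The cytochrome P450 enzymes of the 2b, 2c and 3a families, which oxidize drugs, steroids and fatty acids, showed the largest rises. Of the 21 members that both tables list, 14 were tested, 9 rose and 0 fell, against 0.244% of all genes called higher. The median log2 fold change of the 14 was 2.38, 13 were positive, and in 12 the PCN libraries lay wholly above the HFD libraries, against 11.4% of all genes. Cyp3a11 (ENSMUSG00000056035, chromosome 5, 145854426 to 145879964) had 409, 731 and 530 CPM in HFD 4, 30 and 38, and 11890, 9255 and 4652 CPM in HFD PCN 5, 11 and 27. Its lowest PCN library lay far above its highest HFD library. Each group had 3 libraries, with means of 557 ± 162 and 8598 ± 3662 CPM (SD, n = 3). The log2 fold change was 3.95 (SE 0.43, adjusted p = 0.00214). Transcripts of this gene alone took 1.16%, 0.823% and 0.508% of the joined counts of HFD PCN 5, 11 and 27, and 0.0411%, 0.07% and 0.0577% of those of HFD 4, 30 and 38. Chow had 1916 ± 415 CPM and HFD Vehicle 612 ± 502 CPM.

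The steepest rise was that of Cyp2c29 (ENSMUSG00000003053, chromosome 19, 39269405 to 39330713), an enzyme that epoxidizes arachidonic acid. It had 3.72, 7.19 and 10.2 CPM in HFD and 1511, 924 and 307 CPM in HFD PCN, so that the PCN libraries spanned a wider range than in most other members. The log2 fold change was 6.94 (SE 0.76, adjusted p = 0.0293), a 123-fold difference between 7.04 ± 3.25 and 914 ± 602 CPM. In Chow it stood at 131 ± 22.5 CPM and in HFD Vehicle at 21.4 ± 3.73 CPM, so HFD was the group with the lowest level. Cyp2c55, a neighbour in the same gene cluster, had 6.74, 7.19 and 6.99 CPM in HFD and 613, 429 and 98.9 CPM in HFD PCN. With a log2 fold change of 5.76 (SE 0.77) it missed the threshold at an adjusted p of 0.0633.

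The other Cyp2 members rose less steeply. On chromosome 19 the genes Cyp2c55, Cyp2c65, Cyp2c66, Cyp2c29 and Cyp2c38 lie between 39007019 and 39463075. Cyp2c66 had 60.1 ± 1.96 CPM in HFD and 506 ± 209 CPM in HFD PCN (log2 fold change 3.08, SE 0.31, adjusted p = 0.00161). Cyp2c65 had 178 ± 27.3 and 493 ± 127 CPM (log2 fold change 1.47, SE 0.24, adjusted p = 0.0267). Cyp2c38, at a much lower level, had 3.50 ± 1.51 and 22.6 ± 5.61 CPM (log2 fold change 2.69, SE 0.33, adjusted p = 0.00725). The pseudogene Cyp2c53-ps in the same stretch, outside the naming rule and chosen after its values were seen, rose by 2.78 on the log2 scale (adjusted p = 0.0243). Cyp2b10 (chromosome 7, 25897620 to 25926624) had 155, 225 and 200 CPM in HFD and 805, 654 and 488 CPM in HFD PCN, without overlap. Its log2 fold change was 1.75 (SE 0.25, adjusted p = 0.0119).

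Among the Cyp3a genes, Cyp3a44, Cyp3a11, Cyp3a25 and Cyp3a59 lie in 1 stretch of chromosome 5 between 145773983 and 146113287, and all 4 rose. Cyp3a25 had 152 ± 41.3 CPM in HFD and 1018 ± 341 CPM in HFD PCN (log2 fold change 2.74, SE 0.32, adjusted p = 0.00315). Cyp3a59 and Cyp3a44 had 1.196 ± 0.434 and 1.95 ± 0.919 CPM in HFD and 7.61 ± 2.28 and 9.93 ± 2.27 CPM in HFD PCN (adjusted p = 0.011 and 0.0162). Cyp3a13, which starts at 137892932 on the same chromosome, had 655, 1594 and 1320 CPM in HFD and 2564, 1932 and 1940 CPM in HFD PCN. Its log2 fold change of 0.85 (SE 0.33) did not pass (adjusted p = 0.218). On the scale of CPM per kilobase of exon, the level of Cyp3a13 in HFD was 402 and that of Cyp3a11 109. In HFD PCN the order was turned, at 726 for Cyp3a13 and 1690 for Cyp3a11. Near-identical copies limit these values: 30% of the 50-base words of Cyp3a59, 26.8% of those of Cyp3a25 and 26.5% of those of Cyp3a44 also occur in other genes, against 6.73% for Cyp3a11 and 4.25% for Cyp2c29. Without HFD 4 none of the 9 rises of the list passed, although the median of the list was still 2.21. Without HFD 30, 5 passed. In whole tissue, fewer cells of a type and less RNA per cell cannot be told apart, and this holds for each group of genes described here.

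**Figure D3:**
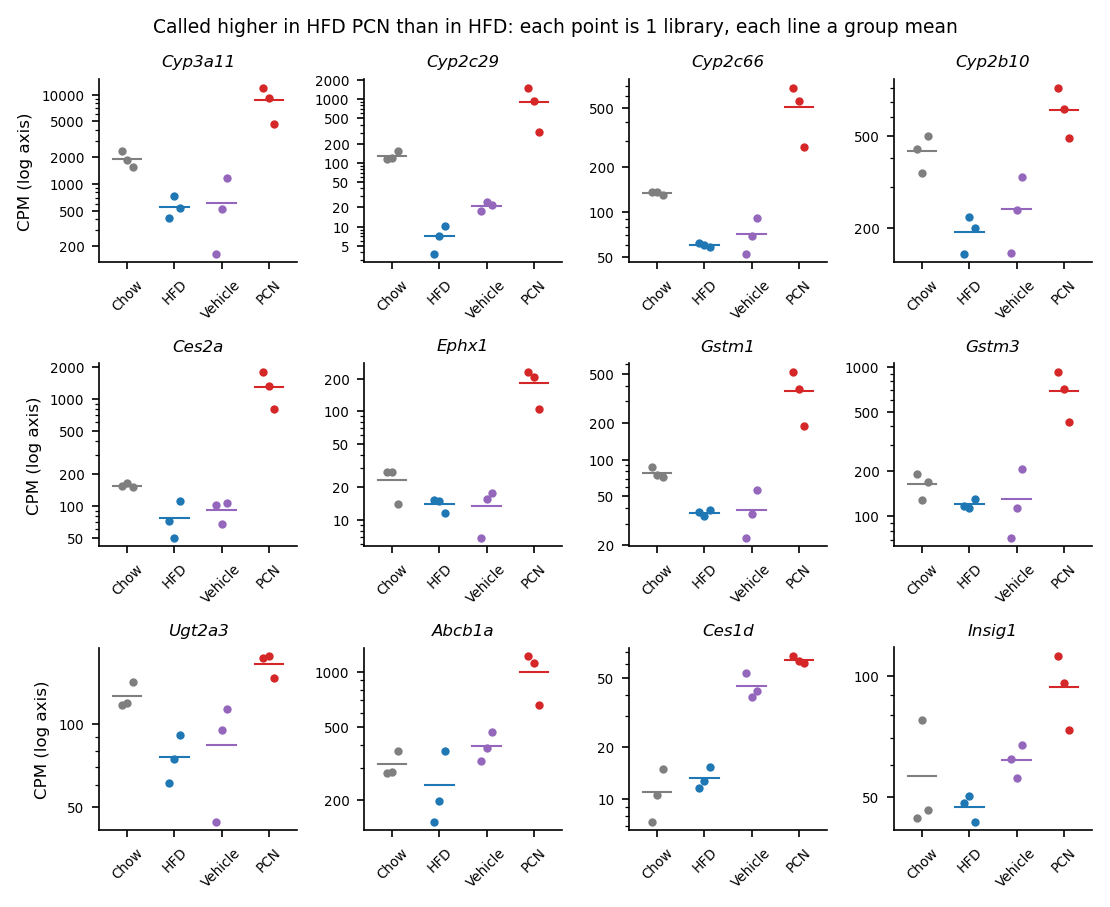
CPM on a log axis of 12 genes called higher in HFD PCN than in HFD, 1 panel per gene; each point is 1 library and each line the mean of the 3 libraries of Chow, HFD, HFD Vehicle or HFD PCN. For Cyp3a11 the HFD libraries lie between 409 and 731 CPM and the HFD PCN libraries between 4652 and 11890 CPM; for Ces1d the HFD Vehicle mean lies nearer to HFD PCN than to HFD.

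The stretches before the start sites of 4 genes that rose are shown because PXR binds repeats of nuclear receptor half-sites, and these are the 4 largest rises among the called genes. They come from the RefSeq promoter windows on GRCm38.p6, which held an entry for 29 of the 39 genes that rose and for 10 of the 13 that fell. The half-sites AGTTCA and AGGTCA were searched on both strands in the 250 bases before each start. Their direct repeats with 3 or 4 bases between and their everted repeats with 6 bases between were searched as well. Capitals mark matches to a half-site. Bases that lie in any annotated exon, of the same gene or another, were left off. These were 11 bases for Cyp2c29 and 110 for Cyp3a11, next to the start site of the window. Distances to the start include them. The Cyp2c29 stretch is chr19:39286835-39287073 on the plus strand, that of Ces2a chr8:104733753-104734002 on the plus strand, that of Cyp3a11 chr5:145879965-145880104 on the minus strand and that of Ephx1 chr1:181017570-181017819 on the minus strand. Each is printed 5′ to 3′ along its gene.
Cyp2c29: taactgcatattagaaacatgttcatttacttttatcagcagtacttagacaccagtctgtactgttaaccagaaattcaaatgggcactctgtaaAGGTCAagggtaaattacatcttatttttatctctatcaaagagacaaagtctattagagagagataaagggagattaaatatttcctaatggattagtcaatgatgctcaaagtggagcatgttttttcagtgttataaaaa
Ces2a: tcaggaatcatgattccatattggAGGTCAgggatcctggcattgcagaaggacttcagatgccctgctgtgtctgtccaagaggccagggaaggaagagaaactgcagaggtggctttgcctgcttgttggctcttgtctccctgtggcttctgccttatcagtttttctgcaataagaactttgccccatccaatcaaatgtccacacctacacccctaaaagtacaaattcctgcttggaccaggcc
Cyp3a11: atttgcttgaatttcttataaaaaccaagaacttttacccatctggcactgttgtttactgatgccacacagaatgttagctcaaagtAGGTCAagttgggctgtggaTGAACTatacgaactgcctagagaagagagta
Ephx1: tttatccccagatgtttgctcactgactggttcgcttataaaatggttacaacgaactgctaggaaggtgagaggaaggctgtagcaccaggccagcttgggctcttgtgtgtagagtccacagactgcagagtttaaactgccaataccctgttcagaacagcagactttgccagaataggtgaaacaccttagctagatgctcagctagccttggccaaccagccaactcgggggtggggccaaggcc

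Cyp2c29 held AGGTCA once, 154 bases before the start, and Ces2a held it once, 226 bases before the start. Cyp3a11 held AGGTCA 162 bases before the start and AGTTCA on the other strand 142 bases before it. Ephx1 held neither half-site, and none of the 4 windows held a repeat. The windows of Cyp2c29 and Ephx1 lie inside the gene coordinates given here, downstream of the outermost annotated start. The stretches before those outermost starts were not searched. Over all 32851 windows of this length, 24.2% held either half-site and 0.0457% held any of the repeats. By gene, a half-site stood in the window of 13 of the 29 genes that rose (44.8%), of 1 of the 10 that fell (10%) and of 26.7% of all genes of the promoter table. Members of 1 family share sequence, so these genes are not independent of each other. A match is a description of letters and not a binding site.

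Carboxylesterases, which split ester drugs, retinyl esters and stored lipids, had 12 tested members, with a median log2 fold change of 0.69. Of the 12, 2 rose, against 0.244% of all genes, and 0 fell. Ces2a (ENSMUSG00000055730, chromosome 8, 104734003 to 104741634) had 72.5, 50.0 and 110 CPM in HFD and 1786, 1319 and 795 CPM in HFD PCN, again without overlap. The difference between 77.5 ± 30.3 and 1300 ± 496 CPM was a log2 fold change of 4.07 (SE 0.39, adjusted p = 0.00161). Ces2b and Ces2c, in the same cluster, had 7.01 ± 3.77 and 213 ± 42.6 CPM in HFD and 52.3 ± 27.1 and 399 ± 119 CPM in HFD PCN. Their groups did not overlap, but the log2 fold changes of 2.82 (SE 0.51) and 0.91 (SE 0.25) did not pass (adjusted p = 0.1 and 0.138). Ces1g, a lipid-handling esterase, had overlapping groups at 7.18 ± 2.40 and 14.5 ± 5.61 CPM (adjusted p = 0.178). Without HFD 4, Ces1d alone of the list passed.

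Ces1d (ENSMUSG00000056973, chromosome 8, 93166068 to 93197838), a triacylglycerol and retinyl ester hydrolase, had the smallest adjusted p of all 15982 genes. It stood at 11.6, 12.7 and 15.3 CPM in HFD and at 67.0, 62.7 and 60.7 CPM in HFD PCN, a log2 fold change of 2.25 (SE 0.17, adjusted p = 0.000236). The 3 PCN libraries lay close together, unlike those of Cyp3a11 or Ces2a. It was the 1 gene called in all 6 fits that left out a library and in all 16 alternative fits against HFD, with log2 fold changes of 2.18 to 2.38. HFD Vehicle had 44.7 ± 7.57 CPM, above every HFD library, and Chow had 11.0 ± 3.77 CPM. In a fit of the 9 high-fat diet libraries, Ces1d was the only gene called in HFD Vehicle against HFD (log2 fold change 1.75, SE 0.20, adjusted p = 0.0191; 0.00599% of 16697 genes). In the same fit its HFD PCN against HFD Vehicle difference was 0.51 (SE 0.19) and did not pass (adjusted p = 0.186). A higher level than in HFD was thus also measured in the injected group that received no PCN. For that difference between HFD Vehicle and HFD, table and injection cannot be told apart.

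Among epoxide hydrolases, aldehyde dehydrogenases and aldo-keto reductases, 2 of 37 tested members rose, against 0.244% of all genes, and 0 fell. The median of the list was 0.26. Ephx1 (ENSMUSG00000038776, chromosome 1, 180976210 to 181020904), the microsomal epoxide hydrolase that opens reactive epoxides, had 15.3, 15.1 and 11.6 CPM in HFD and 231, 206 and 104 CPM in HFD PCN. That is a log2 fold change of 3.70 (SE 0.30, adjusted p = 0.000859), 13-fold, between groups that lie far apart. Akr1b7, an aldo-keto reductase, had 73.0, 101 and 118 CPM in HFD and 223, 239 and 267 CPM in HFD PCN (log2 fold change 1.31, SE 0.21, adjusted p = 0.023). Here HFD PCN 27 was the highest of the 3 PCN libraries, against the order seen in most genes that rose. Without HFD 4 neither call held, and that of Akr1b7 was also lost without HFD PCN 11 or HFD 30. Aldh1a1, the retinaldehyde dehydrogenase, had 97.6, 95.2 and 342 CPM in HFD and 1137, 665 and 410 CPM in HFD PCN, where HFD 38 stood near HFD PCN 27. Its log2 fold change of 2.04 (SE 0.65) did not pass (adjusted p = 0.204).

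Partners of the P450 enzymes moved less. Cyb5a, cytochrome b5, which passes electrons to P450 enzymes, had 126, 156 and 173 CPM in HFD and 662, 513 and 313 CPM in HFD PCN (log2 fold change 1.71, SE 0.27, adjusted p = 0.025). It was the 1 called gene among 23 tested members of the other P450 and redox partner list, against 0.244% of all genes called higher. The median of that list was 0.27. The call of Cyb5a was lost without any one of HFD PCN 5, HFD PCN 11, HFD 4 and HFD 30. Por, the P450 reductase, had overlapping groups at 300 ± 94.3 and 403 ± 43.7 CPM (log2 fold change 0.43, adjusted p = 0.374). Alas1, the first enzyme of heme synthesis, had 104, 157 and 146 CPM in HFD and 320, 285 and 145 CPM in HFD PCN. Its PCN 27 library lay inside the HFD range, and the log2 fold change of 0.88 (SE 0.28) did not pass (adjusted p = 0.179). Cpox, a later enzyme of heme synthesis, had 36.0 ± 2.40 and 114 ± 46.2 CPM (log2 fold change 1.68, SE 0.29, adjusted p = 0.0524), just short of the threshold.

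Glutathione transferases, which conjugate reactive compounds to glutathione, had 24 tested members, of which 4 rose, against 0.244% of all genes, and 0 fell. In 11 the PCN libraries lay wholly above the HFD libraries, against 11.4% of all genes, and the median was 0.57. Gstm1 (chromosome 3) had 37.2, 34.6 and 38.9 CPM in HFD and 520, 374 and 188 CPM in HFD PCN. Its HFD libraries were tight and its PCN libraries spread, with a log2 fold change of 3.29 (SE 0.34, adjusted p = 0.00276). Gstm3 had 121 ± 9.44 and 690 ± 250 CPM (log2 fold change 2.51, SE 0.28, adjusted p = 0.00214), and Gstm6 had 29.6 ± 9.57 and 72.2 ± 11.8 CPM (1.27, SE 0.23, adjusted p = 0.0483). Of the alpha class, Gsta2 had 42.7 ± 6.49 and 138 ± 34.8 CPM (log2 fold change 1.68, SE 0.22, adjusted p = 0.00672). Gsta1 had 49.7 ± 9.23 and 98.3 ± 18.5 CPM and missed the threshold (log2 fold change 0.98, SE 0.20, adjusted p = 0.0584).

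The split of reads between these copies is uncertain. Of the 50-base words in its transcripts, Gsta1 shares 90.5% with other genes, Gsta2 49.8%, Gstm3 28.8% and Gstm1 18.9%. The pseudogene Gstm2-ps1 (log2 fold change 2.79, adjusted p = 0.00161) and the predicted genes Gm8834 (2.85, adjusted p = 0.0267) and Gm3776 (1.45, adjusted p = 0.0119) were called too. They share 46.9%, 48.8% and 92.5% of their words with other genes, among them Gstm1, Gstm3, Gsta1 and Gsta2. These 3 stand outside the naming rule and were chosen after their values were seen. Without HFD 4, 0 of the 24 transferases passed and the median was 0.39. In the list of NRF2 targets and glutathione supply, where oxidative stress genes stand, 0 of 23 passed with edgeR or DESeq2. An unadjusted p under 0.05 was reached by 2, against 2915 of all 15982 genes, and the median of the list was 0.17. Its members with the smallest p were Gclm (log2 fold change 0.81, adjusted p = 0.169) and Gsr (0.53, adjusted p = 0.185), which did not pass.

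UDP-glucuronosyltransferases and their sugar supply had 15 tested members, of which 3 rose, against 0.244% of all genes, and 0 fell. All 15 had positive log2 fold changes, with a median of 0.87. Ugt2a3 had 60.9, 74.9 and 91.1 CPM in HFD and 174, 178 and 147 CPM in HFD PCN (log2 fold change 1.13, SE 0.19, adjusted p = 0.0298). Ugt2b5 and Ugt2b35 had 26.2 ± 6.71 and 42.3 ± 5.46 CPM in HFD and 62.4 ± 11.9 and 85.4 ± 12.8 CPM in HFD PCN (adjusted p = 0.0345 and 0.0371). Ugt1a1, the bilirubin transferase, had 67.2 ± 8.01 and 151 ± 45.4 CPM, a log2 fold change of 1.17 (SE 0.23) that missed the threshold (adjusted p = 0.0546). The genes of the Ugt1a locus share their last exons, and 58.2% of the words of Ugt1a1 occur in other genes. None of the list passed without any one of HFD PCN 5, HFD PCN 11, HFD 4 and HFD 30, while the median stayed between 0.73 and 0.92 in those fits. Of 9 sulfotransferase and sulfate supply genes 0 passed with edgeR. With DESeq2 2 passed, against 2.87% of all genes. An unadjusted p under 0.05 was reached by 3, against 2915 of all 15982 genes, and the median of the 9 was 0.46. Sult1b1, which sulfates thyroid hormone and phenols, had overlapping groups (log2 fold change 0.46, adjusted p = 0.345), and Sult1d1 and Sult1a1, which did not pass, had log2 fold changes of 0.81 and -0.98 (adjusted p = 0.121 and 0.137).

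Among drug transporters 1 of 22 tested members rose, against 0.244% of all genes, and 0 fell, and the median of the list was -0.12. The member that rose was Abcb1a (chromosome 5, 8660077 to 8748575), the P-glycoprotein that pumps drugs back into the gut lumen. It had 152, 197 and 373 CPM in HFD and 1227, 1114 and 657 CPM in HFD PCN (log2 fold change 2.05, SE 0.36, adjusted p = 0.0483). Its call was lost without any one of HFD PCN 5, HFD PCN 11, HFD 4 and HFD 30, and over the alternatives the log2 fold change was 1.81 to 2.52. HFD Vehicle had 396 ± 70.8 CPM and Chow 313 ± 50.2 CPM. Abcc2, the apical export pump for conjugates, had 663, 1129 and 827 CPM in HFD and 2053, 2109 and 1277 CPM in HFD PCN, without overlap. Its log2 fold change of 1.05 (SE 0.30) did not pass (adjusted p = 0.145). Abcc3, the basolateral pump, had 142, 142 and 156 CPM in HFD and 134, 154 and 140 CPM in HFD PCN (log2 fold change -0.04, adjusted p = 0.915), and its sign turned to 0.01 without HFD 38.

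Cholesterol synthesis genes and their controls were nearly all higher. Of 27 tested members, 26 had positive log2 fold changes with a median of 0.80, and in 21 the PCN libraries lay wholly above the HFD libraries, against 11.4% of all genes. By the test 2 rose, against 0.244% of all genes, and 0 fell. One of them, Insig1, which holds the sterol sensor in the endoplasmic reticulum, had 48.1, 50.2 and 43.2 CPM in HFD and 113, 96.1 and 73.3 CPM in HFD PCN (log2 fold change 0.998, SE 0.19, adjusted p = 0.0488). The PCN libraries lay wholly above the HFD libraries, and HFD PCN 27 was the lowest of the 3.

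The vehicle group lay between HFD and HFD PCN for this list. In the fit of the 9 high-fat diet libraries the median of the cholesterol list was 0.80 for HFD PCN against HFD, 0.36 for HFD Vehicle against HFD and 0.33 for HFD PCN against HFD Vehicle. Insig1 stood at 61.6 ± 5.76 CPM in HFD Vehicle, between both groups. Its log2 fold change was 0.38 for HFD Vehicle against HFD (adjusted p = 0.596) and 0.62 for HFD PCN against HFD Vehicle (adjusted p = 0.164), and it was not called in either. Without any one of HFD PCN 5, HFD PCN 11, HFD 4 and HFD 30, 0 of the list passed, and 13 passed without HFD 38. The median ranged over 0.66 to 0.93 in the fits that left out 1 library.

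Genes of sterol uptake and export gave 1 call, upward, in 13 tested members, against 0.244% of all genes called higher. The median of the 13 was 0.18. Abca1, the exporter that loads cholesterol onto apolipoprotein A1, had 122, 181 and 221 CPM in HFD and 434, 423 and 396 CPM in HFD PCN (log2 fold change 1.26, SE 0.23, adjusted p = 0.0483), a call lost without any one of HFD PCN 5, HFD PCN 11, HFD 4 and HFD 30. Npc1l1, the brush border cholesterol importer, had 344 ± 95.6 and 505 ± 27.4 CPM. Its groups did not overlap, and its log2 fold change of 0.55 (SE 0.23) did not pass (adjusted p = 0.242). Cpt1a, the gatekeeper of mitochondrial fatty acid oxidation, had 136 ± 3.88 and 180 ± 25.1 CPM (log2 fold change 0.41, SE 0.17, adjusted p = 0.241). In the list of PPAR alpha responsive and beta-oxidation genes 0 of 38 passed with edgeR. With DESeq2 2 passed, against 2.87% of all genes. An unadjusted p under 0.05 was reached by 11, against 2915 of all 15982 genes, and the median of the list was 0.23. Pdk4 and Decr1, its members with the smallest p, did not pass either (log2 fold changes 0.81 and 0.65, adjusted p = 0.0856 and 0.146). The desaturase gene Scd1 is listed only with HFD Vehicle and HFD PCN, and no comparison with HFD was made.

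**Figure D4:**
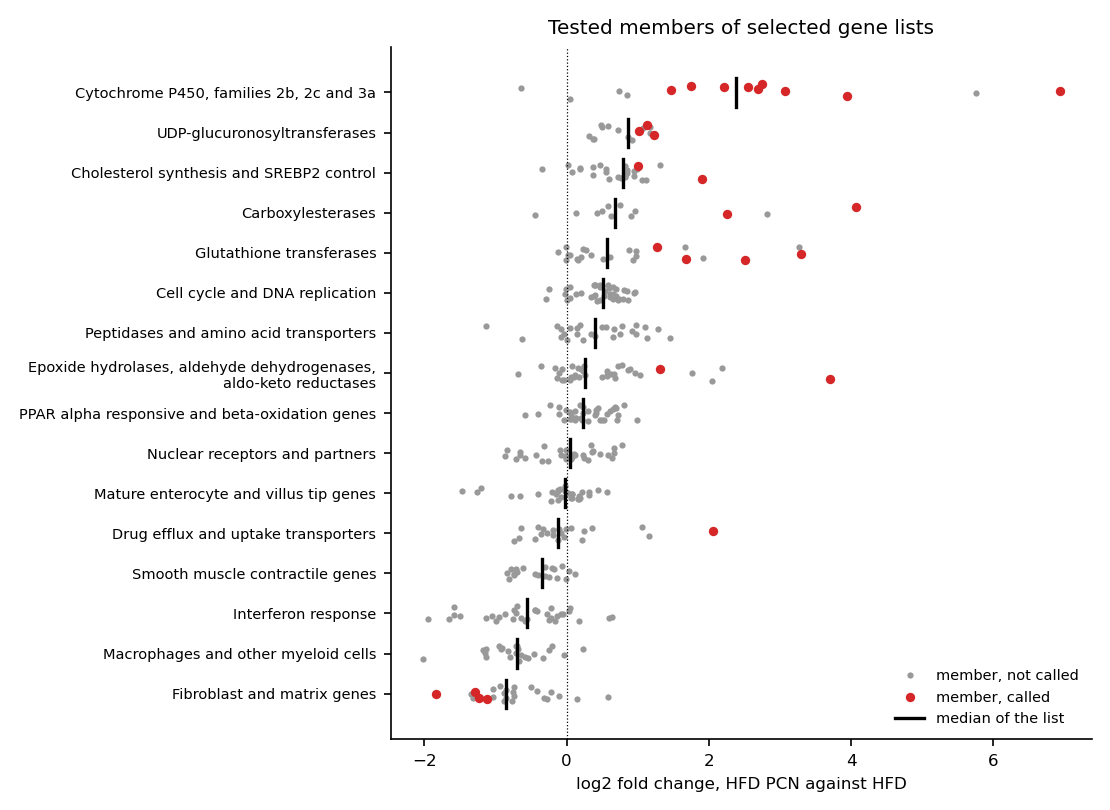
Log2 fold change of HFD PCN against HFD (horizontal axis) for each tested member of selected gene lists (rows); red points are called members, grey points members that were not called, and black bars list medians. The medians run from 2.38 for the cytochrome P450 list to -0.853 for the fibroblast and matrix list.

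The genes that fell were led by the extracellular matrix. Of 25 tested fibroblast and matrix genes 4 fell and 0 rose, against 0.0813% of all genes called lower. Of the 25, 23 had negative log2 fold changes with a median of -0.85, and in 18 the PCN libraries lay wholly below the HFD libraries, against 11.9% of all genes. Col1a1 (chromosome 11, 94936224 to 94953042), a chain of fibrillar collagen I, had 62.5, 42.9 and 38.6 CPM in HFD and 16.3, 7.38 and 16.2 CPM in HFD PCN. The difference between 48.0 ± 12.7 and 13.3 ± 5.11 CPM was a log2 fold change of -1.84 (SE 0.31, adjusted p = 0.0488). Col3a1, the collagen III chain, had 127, 109 and 109 CPM in HFD and 61.0, 39.0 and 57.8 CPM in HFD PCN (log2 fold change -1.13, SE 0.19, adjusted p = 0.0345). Col5a1, of collagen V, and Col4a2, of the basement membrane collagen IV, had 37.5 ± 11.5 and 93.2 ± 19.2 CPM in HFD and 15.2 ± 2.21 and 39.7 ± 11.0 CPM in HFD PCN. Their log2 fold changes were -1.29 and -1.23 (adjusted p = 0.0372 and 0.0488). None of the 4 passed without HFD 4 or HFD 30, and 13 of the list passed without HFD 38.

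Other genes with large falls lay outside that list. Col5a3 had 7.20, 3.94 and 2.99 CPM in HFD and 0.696, 0.844 and 0.781 CPM in HFD PCN, the largest fall among those named by size (log2 fold change -2.52, SE 0.40, adjusted p = 0.0251). Col18a1, the basement membrane collagen from which endostatin is cut, had 63.7 ± 4.81 and 25.0 ± 6.48 CPM (log2 fold change -1.35, SE 0.20, adjusted p = 0.018). Adamtsl4, a secreted protein that binds fibrillin microfibrils, had 10.5 ± 3.26 and 3.23 ± 0.678 CPM (-1.72, adjusted p = 0.0345). Ptpru, a receptor tyrosine phosphatase, had 9.12 ± 3.06 and 2.51 ± 0.369 CPM (-1.84, adjusted p = 0.0336). Stab1, a scavenger receptor of macrophages and sinusoidal endothelium, had 90.2, 67.7 and 53.1 CPM in HFD and 27.4, 28.5 and 32.8 CPM in HFD PCN (-1.24, adjusted p = 0.0267). Of Stab1, HFD Vehicle had 44.0 ± 6.55 CPM, below every HFD library. In a fit of the 9 high-fat diet libraries Stab1 had -0.68 for HFD Vehicle against HFD and -0.57 for HFD PCN against HFD Vehicle (adjusted p = 0.478 and 0.192). Fbxl19, an F-box protein that binds CpG islands, had 43.4 ± 10.5 and 20.4 ± 2.80 CPM (-1.08, adjusted p = 0.0488). Without HFD 4 or HFD 30 none of these 6 passed, and without HFD PCN 5 only Col18a1 of the 6 did.

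**Figure D5:**
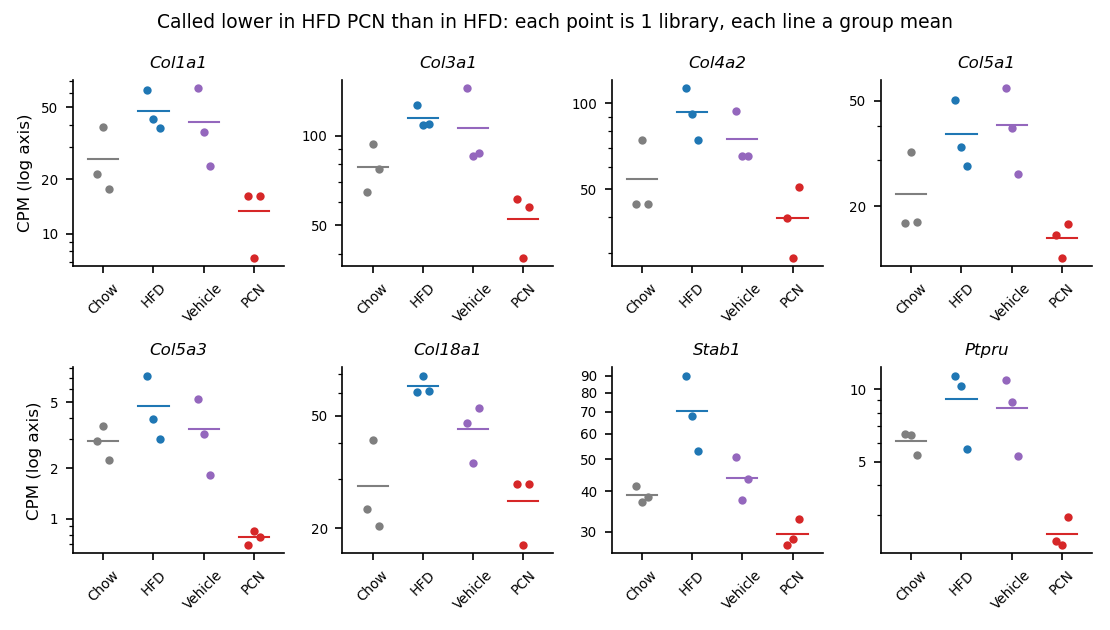
CPM on a log axis of 8 genes called lower in HFD PCN than in HFD, 1 panel per gene; each point is 1 library and each line the mean of the 3 libraries of Chow, HFD, HFD Vehicle or HFD PCN. For Col1a1 the HFD libraries lie between 38.6 and 62.5 CPM and the HFD PCN libraries between 7.38 and 16.3 CPM.

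The collagens differed in where the vehicle group stood. HFD Vehicle had 41.4 ± 20.3 CPM for Col1a1, 106 ± 33.2 CPM for Col3a1 and 40.5 ± 14.6 CPM for Col5a1, and its libraries overlapped those of HFD. For Col18a1 it had 44.8 ± 9.80 CPM, with all 3 libraries below those of HFD and a log2 fold change of -0.52 for HFD Vehicle against HFD. In the 9-library fit the median of the matrix list was -0.60 for HFD PCN against HFD Vehicle and -0.17 for HFD Vehicle against HFD. No gene of the list was called in either, and against HFD Vehicle the log2 fold changes were -1.65 for Col1a1 (adjusted p = 0.132) and -1.01 for Col3a1 (adjusted p = 0.14). Markers of the deeper gut wall differed between the HFD libraries: the 20 smooth muscle contractile genes summed to 3436, 1671 and 1401 CPM in HFD 4, 30 and 38 and to 1537 to 1690 CPM in the PCN libraries. Their median was -0.35, and 0.09 without HFD 4, with 18 of 20 negative and 0 called by edgeR or DESeq2. An unadjusted p under 0.05 was reached by 1 of the 20, against 2915 of all 15982 genes. The 27 joined matrix genes summed to 1423, 1198 and 1153 CPM in HFD and to 836, 667 and 842 CPM in HFD PCN. Without HFD 4 the matrix median was -0.75, with 21 of 25 negative and 0 called. The part of the amount of gut wall in these falls was not tested beyond those values.

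Markers of macrophages and other myeloid cells were lower in PCN without a call. Of 24 tested, 23 were negative with a median of -0.70, and in 12 the PCN libraries lay wholly below the HFD libraries, against 11.9% of all genes. Csf1r, the receptor for the macrophage growth factor, had 40.9, 42.1 and 48.9 CPM in HFD and 21.5, 18.6 and 28.5 CPM in HFD PCN, and missed the threshold (log2 fold change -0.95, SE 0.19, adjusted p = 0.0562). Mrc1, the mannose receptor, had 20.2 ± 3.05 and 10.7 ± 1.25 CPM (-0.91, SE 0.20, adjusted p = 0.075). An unadjusted p under 0.05 was reached by 12 of the 24, against 2915 of all 15982 genes. DESeq2 called 5, all lower, against 2.87% of all genes in either direction. The median of the list was -0.56 for HFD Vehicle against HFD and -0.22 for HFD PCN against HFD Vehicle. The summed level of the list did not separate the groups, at 579 to 766 CPM in HFD and 568 to 677 CPM in HFD PCN, of which Mertk alone gave 329 to 536 CPM.

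Interferon response genes had 28 of 33 members negative, a median of -0.56 and 0 called by edgeR. DESeq2 called 1, against 2.87% of all genes. An unadjusted p under 0.05 was reached by 9, against 2915 of all 15982 genes. The negative median rested on 1 library: without HFD 30 it was -0.08. Oas2, an antiviral RNA sensor, had 6.74, 15.4 and 5.19 CPM in HFD and 3.13, 3.02 and 2.64 CPM in HFD PCN (log2 fold change -1.65, adjusted p = 0.103), and Igtp had 8.13, 20.8 and 10.8 CPM and 8.71, 5.49 and 8.10 CPM (-0.87, adjusted p = 0.215). In both genes HFD 30 was the highest of the 6 libraries. The summed level of the list was 586, 1409 and 869 CPM in HFD 4, 30 and 38 and 695 to 834 CPM in HFD PCN. Its median against HFD Vehicle was 0.04.

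Cell cycle and DNA replication genes leaned the other way, with 36 of 40 positive, a median of 0.52 and 0 called by edgeR. DESeq2 called 1, against 2.87% of all genes. An unadjusted p under 0.05 was reached by 14, against 2915 of all 15982 genes. Hells, a chromatin remodeller of dividing cells, had 18.2 ± 6.37 CPM in HFD and 35.6 ± 6.19 CPM in HFD PCN, without overlap (log2 fold change 0.97, adjusted p = 0.125), and Rrm1, a subunit of ribonucleotide reductase, had 26.8 ± 6.31 and 40.8 ± 5.47 CPM (0.61, adjusted p = 0.182). Neither passed. The list was lowest in HFD 30, at 608 CPM against 814 and 982 CPM in HFD 4 and 38 and 1039 to 1345 CPM in HFD PCN, and without HFD 30 its median was 0.30. The 30 markers of mature enterocytes and the villus tip had a median of -0.02, with 14 positive, 16 negative and 0 called by edgeR or DESeq2 or at an unadjusted p under 0.05. They summed to 16960, 33980 and 34640 CPM in HFD 4, 30 and 38 and to 27460 to 30770 CPM in HFD PCN, so that HFD 4 had the lowest enterocyte sum of the 6 libraries as well as the highest smooth muscle sum. The log2 fold change of Cyp3a11 was 3.62 to 4.25 over all 16 alternatives against HFD, the fit without HFD 4 among them.

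Among the remaining calls, Fyb2, an adaptor protein related to the T cell adaptor FYB, rose from 1.39 ± 0.218 to 14.2 ± 7.33 CPM (log2 fold change 3.31, SE 0.43, adjusted p = 0.0119). The following genes stand outside the naming rule and were named after their values were seen. Aldoc, an aldolase of glycolysis, rose by 1.87 on the log2 scale (adjusted p = 0.0176), Aspa, which splits N-acetylaspartate, by 1.44 (adjusted p = 0.0269), and Vldlr, a lipoprotein receptor, by 1.18 (adjusted p = 0.0488). Nedd9, a scaffold of integrin signalling, rose by 1.18 (adjusted p = 0.0488), Rbbp8, a DNA end resection factor, by 1.36 (adjusted p = 0.0207) and 4931406C07Rik by 1.75 (adjusted p = 0.0483). Of Rbbp8, HFD Vehicle had 65.8 ± 14.4 CPM, above every HFD library. In the 9-library fit Rbbp8 had 0.81 for HFD Vehicle against HFD and 0.55 for HFD PCN against HFD Vehicle (adjusted p = 0.478 and 0.216). Aqp8, a water channel, had 1.16, 2.28 and 0.789 CPM in HFD and 0.0497, 0 and 0.195 CPM in HFD PCN, so that its log2 fold change of -4.24 (adjusted p = 0.049) rests on few reads. Chow had 5.74 ± 1.76 CPM and HFD Vehicle 0.259 ± 0.335 CPM of Aqp8. Tmem161a fell by 1.07 (adjusted p = 0.0472), from 22.1 ± 1.53 to 10.6 ± 1.87 CPM. HFD Vehicle had 14.6 ± 2.68 CPM of Tmem161a, below every HFD library and overlapping HFD PCN. In the 9-library fit Tmem161a had -0.585 for HFD Vehicle against HFD and -0.49 for HFD PCN against HFD Vehicle (adjusted p = 0.509 and 0.228). Without HFD 4 none of the genes in this paragraph passed.

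The 3 PCN libraries differed in strength. Among the 39 genes that rose, HFD PCN 27 was the lowest of the 3 in 36 and HFD PCN 5 the highest in 32. The median log2 ratio of a PCN library to the HFD mean over these genes was 2.34 in HFD PCN 5, 2.02 in HFD PCN 11 and 1.64 in HFD PCN 27. Among the 13 genes that fell, HFD PCN 11 was the lowest in 10, with median log2 ratios of -1.36, -1.83 and -1.15 in the same order. The rising and the falling genes thus did not take the same order of libraries.

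Against the vehicle group, 8 of the 14 genes named for the largest rises passed in the 9-library fit, which also holds the HFD libraries. A fit of the HFD PCN and HFD Vehicle libraries alone called fewer genes, 8 of 16090 in either direction (0.0497%). In the 9-library fit the HFD PCN against HFD Vehicle log2 fold changes were 3.83 for Cyp3a11 (adjusted p = 0.0829), 5.43 for Cyp2c29 (adjusted p = 0.00538), 3.84 for Ces2a (adjusted p = 0.00481) and 3.78 for Ephx1 (adjusted p = 0.00481). Those of Gstm1, Gstm3, Cyp2c66, Cyp3a25 and Fyb2 were 3.25, 2.42, 2.85, 2.57 and 3.48, and all 5 passed (adjusted p = 0.00868, 0.0469, 0.00777, 0.0243 and 0.0169). Like Cyp3a11, 5 others of the 14 did not pass, at 1.35 for Cyp2c38 (adjusted p = 0.128), 3.01 for Cyp3a59 (0.107), 3.20 for Cyp3a44 (0.104), 1.345 for Abcb1a (0.142) and 0.51 for Ces1d (0.186). Over all calls, 10 of the 39 genes that rose against HFD passed against HFD Vehicle in the 9-library fit, and 0 of the 13 that fell did. The median of the 39 was 1.55 there, beside 1.91 in the 6-library fit against HFD, and that of the 13 was -1.03, beside -1.35. Cyp2c55 and Ces2b, which missed the threshold against HFD, passed against HFD Vehicle, at 6.19 (adjusted p = 0.00868) and 4.85 (adjusted p = 0.0169). In the 9-library fit 13 of 16697 genes passed as higher in HFD PCN than in HFD Vehicle (0.0779%) and 0 as lower. The 2 comparisons share the HFD PCN libraries and are not independent of each other.

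RNA resembling ribosomal RNA differed between the libraries. Gm26917 had 41160, 22330 and 9677 CPM in HFD 4, 30 and 38 and 3430, 5086 and 6996 CPM in HFD PCN (log2 fold change -2.24, SE 0.53, adjusted p = 0.103). Gm42418 had 4628 ± 3837 and 492 ± 248 CPM (-3.23, adjusted p = 0.138). Lars2, a mitochondrial leucyl-tRNA synthetase gene, had 372, 109 and 67.1 CPM in HFD and 27.9, 33.5 and 37.7 CPM in HFD PCN (-2.46, SE 0.72, adjusted p = 0.203). All 3 were lower in every PCN library than in any HFD library, yet the spread within HFD kept them from passing. The list did not move as a whole: of its 8 tested genes 3 were positive and 5 negative. Gm10800 lay wholly higher in HFD PCN (0.64, adjusted p = 0.294). The mitochondrial ribosomal RNA genes mt-Rnr1 and mt-Rnr2 had overlapping groups (-0.54 and -0.22, adjusted p = 0.616 and 0.862). Leaving such genes out changed the count from 52 to 46. Hsp90aa1, a heat shock chaperone, had overlapping groups at 110 ± 46.1 and 159 ± 56.5 CPM (log2 fold change 0.53, adjusted p = 0.445). In HFD Vehicle it had 1136 ± 901 CPM.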

How the data were processed

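The authors deposited raw read counts per gene in 2 tables. The submitters' processing notes name the tools HISAT2, HTSeq and DESeq2 and the build GRCm38 (mm10). Neither versions nor the strand setting are given in the sources used here. Of 28066 and 28731 genes, the 26121 listed in both tables were joined by Ensembl identifier, and a gene in only 1 table was not compared. Counts of the 6 libraries were filtered with filterByExpr, scaled by TMM and tested with the robust quasi-likelihood F-test of edgeR 4.0.16 in R 4.3.3. A call is an adjusted p (Benjamini-Hochberg, over the 15982 tested genes) under 0.05. The SE is approximate, from the log2 fold change and the F statistic. CPM are TMM-scaled, over all 12 libraries for Chow and HFD Vehicle. Replicate libraries differed by more than sampling noise, with chi-square values of 36.7 to 77.9 per degree of freedom, and each counted once. The fit was tested on simulated counts.

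The genes named are the 14 largest rises and 10 largest falls among called genes whose groups do not overlap and whose mean is 20 counts or more (no predicted genes, pseudogenes or immunoglobulin segments), up to 4 called members of each of 52 lists, up to 2 members of lists without a call, and a fixed set of PXR and lipid genes. The comparison, its lists and its members were chosen with earlier results of these data known. Alternatives were DESeq2 1.42.0, limma-voom (limma 3.58.1) with and without sample weights, other scalings and filters, other sets of libraries, each library left out, and HFD Vehicle as the control. Coordinates are those of the deposited tables, counted from 1. Words of 50 bases were compared between GENCODE M21 transcripts. Results for some genes are not reported here.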

Additional observations from a re-analysis of the deposited data

Results flagged for a closer look

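The deposited table of Chow and HFD lists genes that the other table does not, and these entered no comparison here. The genes named next were picked for a minimum mean level in HFD and for every HFD library lying above every Chow library. That separation was thus set by the choice and is not a result. The ribosomal RNA gene CT010467.1 made up 13% of HFD 4, 1.03% of HFD 30 and 2.72% of HFD 38. The Chow libraries had 0.0127% to 0.0246%. The immunoglobulin segment Ighv2-9 made up 0.017% of HFD 4, 0.000151% of HFD 30 and 0.00949% of HFD 38. For Ighv2-9 the Chow libraries had 2.42e-05% to 6.23e-05%. Neither gene has a value in HFD PCN.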

How the results depend on the processing

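Against the 52 genes of the reported fit, DESeq2 called 459 (51 of the 52 among them), limma-voom 31, limma-voom with sample quality weights 224, edgeR without a filter on low counts 746, edgeR with all 12 libraries 29 and with 9 libraries 13. The counts with 1 library left out ran from 1 (without HFD 4) to 452 (without HFD 38), and with HFD Vehicle as the control 8 genes passed, 4 of them among the 52. Beyond the fewer or more genes and libraries that these fits hold, the cause was not tested. RLE factors (45), upper quartile factors (47), at least 1 CPM in 3 libraries (39) and leaving out genes resembling ribosomal RNA (46) stayed within 1.5 times. Signs turned for 5 genes that were not called. With 1 library left out the log2 fold change ran from -0.118 to 0.118 for Nr1i2, from -0.257 to 0.195 for Nr1i3, from -0.226 to 0.084 for Rxra and from -0.093 to 0.011 for Abcc3. Against HFD Vehicle these genes had 0.124, 0.315, 0.161 and 0.504, and Hsp90aa1 had -2.848. Of the other values of named genes, 1227 kept their side of the threshold, 97 passed it anew and 324 no longer passed. No paired analysis was possible because the groups share no replicate number. The depth of HFD 4, 4925123 counts, limits the precision of low genes.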

Other observations

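Of 24 tested T and NK cell genes 16 were positive with a median of 0.33, and 0 were called by edgeR or DESeq2. An unadjusted p under 0.05 was reached by 2 of the 24, against 2915 of all 15982 genes. Of 18 tested B and plasma cell genes 8 were positive and 10 negative, with a median of -0.02. Trdc, which encodes the constant part of the delta chain of T cell receptors, had 0.929, 1.14 and 1.24 CPM in HFD and 1.89, 3.94 and 1.56 CPM in HFD PCN (log2 fold change 1.11, adjusted p = 0.209), and Cd160, a receptor of intraepithelial lymphocytes, had 0.232, 0.969 and 1.02 CPM and 1.99, 2.39 and 1.27 CPM (1.15, adjusted p = 0.215). The T and NK cell list summed to 57.2, 136 and 85.0 CPM in HFD 4, 30 and 38 and to 110 to 152 CPM in HFD PCN. HFD 30 thus lay inside the PCN range. Immunoglobulin segments were called in opposite directions, Igkv5-39 upward (2.95, adjusted p = 0.0119) and Ighv3-8 downward (-2.61, adjusted p = 0.0472). Brush border peptidases and amino acid transporters had 21 of 27 members positive with a median of 0.40 and 0 called by edgeR. DESeq2 called 6, against 2.87% of all genes. An unadjusted p under 0.05 was reached by 11 of the 27, against 2915 of all 15982 genes. Mep1a, a subunit of meprin, had 33.0 ± 10.6 and 65.7 ± 7.37 CPM (0.98, adjusted p = 0.083), and Slc6a20a, a proline transporter, 107, 185 and 163 CPM in HFD and 321, 334 and 246 CPM in HFD PCN (0.98, adjusted p = 0.0986). Reg3g, an antibacterial lectin, had 24.6, 11.1 and 28.5 CPM in HFD and 7.66, 6.82 and 10.3 CPM in HFD PCN (-1.37, adjusted p = 0.118), and Ddit4, a glucocorticoid- and stress-induced inhibitor of mTOR, 29.1 ± 3.59 and 12.3 ± 6.32 CPM (-1.27, adjusted p = 0.127). Neither passed.

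Some gene lists had medians of opposite sign against the 2 controls. In the 9-library fit, the median of 23 heat shock chaperone genes was 0.23 against HFD, -1.43 against HFD Vehicle and 1.68 for HFD Vehicle against HFD. For 16 Paneth cell products it was -0.12, -2.25 and 2.12 in the same order. No member of either list was called in any of these comparisons. For the P450 list the 3 medians were 2.40, 2.07 and -0.08. The 3 comparisons share libraries.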
